A study of Mus musculus with 64 samples.

Results

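Crym, the transcript of mu-crystallin, was used to divide 32 mouse striatal RNA samples into 10 with high, 10 with low and 12 with middle levels, and the 20 high and low mice were compared across all other genes. The 2 sequencing runs of each mouse were summed, and mice were ranked by Crym CPM, its count scaled to the library total, within genotype and sequencing set. The 3 highest and 3 lowest were taken where a genotype and set held 10 mice, and the 2 highest and 2 lowest where it held 6. Sequencing set A holds mice 1 to 16 and set B mice 17 to 32, which were run in different lanes per the labels. The values that chose the mice are therefore those of Crym itself, which is described below without a test and was left out of the comparison.

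The strain was C57BL/6NJ throughout. Cyfip2 was N/- in 16 mice, labelled binge-resistant, and N/N in 16, labelled binge-prone, with 8 males and 8 females per genotype. N stands for the missense Cyfip2 allele known from C57BL/6N mice, so every mouse had at least 1 copy of it, and N/- mice had a null allele in place of the other. Striatal punches were taken on Day 24, right after 5 min on the elevated plus maze (EPM), at 82 to 84 days of age. The labels give neither a diet nor a training group, and the series text gives 8 mice per genotype where the sample labels give 16.

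Mu-crystallin binds thyroid hormone in the cytosol and also acts as a ketimine reductase in lysine breakdown. In the mouse striatum Crym is known for a gradient that is high medially and ventrally and low laterally, opposite to that of the cannabinoid receptor gene Cnr1. It is also expressed in deep layers of the cortex. In bulk RNA, fewer cells of a type and less RNA per cell cannot be told apart.

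Crym (Entrez 12971, chromosome 7, 120186380 to 120201989, mm10) lay between 136 and 209 CPM in the high mice, with a median of 176 CPM. The low mice lay between 96.3 and 136 CPM, with a median of 122 CPM, and the middle mice between 123 and 168 CPM. High and low mice did not overlap within any genotype and set, although the lowest high mouse (135.7 CPM, N/- in set B) was just under the highest low mouse (136.3 CPM, N/N in set B). The spread was widest in N/- mice of set A, where the highest mouse had 2.17 times the Crym of the lowest, against 1.62 times in N/N of set A, 1.40 times in N/N of set B and 1.19 times in N/- of set B. Mouse 4, an N/- female of set A at 96.3 CPM, was the lowest of all. The narrowest edge was also in N/- of set A, where the last low mouse had 128.98 CPM (95% Poisson interval 125 to 133, counting error only) and the first middle mouse 129.24 CPM (125 to 133). Ranking on the first run alone left 30 of 32 mice in the same group, and ranking on the second run left all 32.

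**Figure D1:**
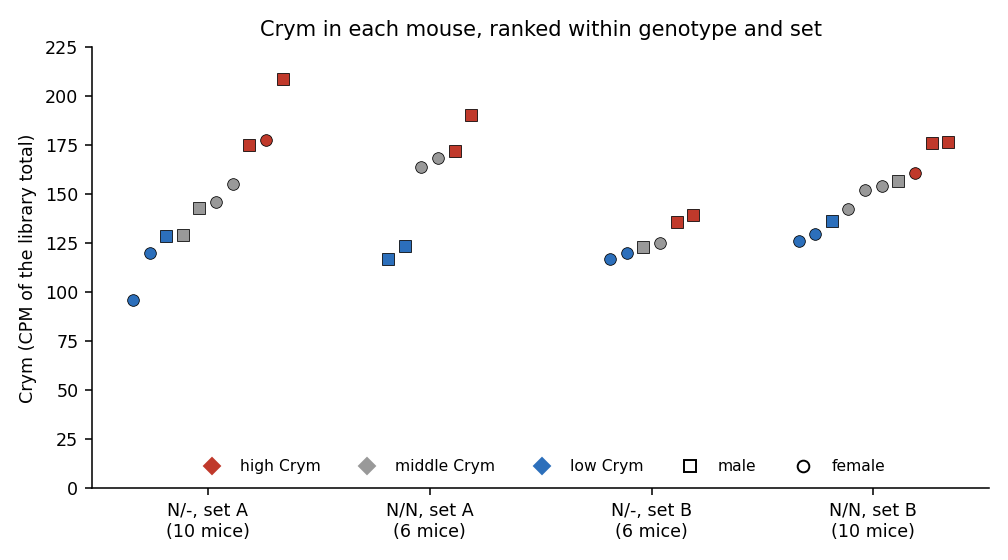
Crym in CPM of the library total (y axis) for each of the 32 mice, arranged by rank within genotype and set (x axis), with colour for the Crym group and shape for sex. The high mice reach 209 CPM and the low mice go down to 96.3 CPM, both in N/- of set A.

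Genotype and set were balanced by the ranking, with 5 N/- and 5 N/N and 5 mice of each set in both groups, but sex was not. The high group held 8 males and 2 females and the low group 4 males and 6 females. In N/- of set B both high mice were male and both low mice female. Over all 32 mice Crym was 117 to 209 CPM in males (median 141) and 96.3 to 178 CPM in females (median 144), so the 2 ranges overlapped broadly. Sex was a term in the comparison.

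Summed libraries held 28.8 M to 33.8 M counts (M for mega), with 19341 to 20092 genes detected per mouse. Cyfip2 lay at 509 to 646 CPM in N/- mice and 929 to 1285 CPM in N/N mice, with no overlap. It did not separate the Crym groups, which each held both genotypes (log2 fold change -0.07, SE 0.05, adjusted p = 0.408). Genes that mark the tissue were abundant in every mouse, with 18 genes of striatal projection neurons summing to 10722 to 21124 CPM, and 12 genes of cortical glutamatergic neurons to 415 to 1657 CPM. The library of mouse 3, a middle mouse outside the high and low groups, had sex-linked counts that went against its label as female. It enters the slopes over 32 and over 12 mice. Cages are labelled: the high and low mice were housed in 16, and a high and a low mouse shared a cage in 2.

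No gene passed the threshold of adjusted p under 0.05 between high and low Crym mice (0 of 16287 tested, 0%, edgeR quasi-likelihood test with Benjamini-Hochberg adjustment). Crym itself was left out of the test. The smallest adjusted p was 0.0508, 2020 genes had an adjusted p under 0.1, and 4394 genes (27%) passed an unadjusted 0.05. Of these, 2352 (14.4%) were higher and 2042 (12.5%) lower in the high mice. limma voom also called 0 genes, while DESeq2 called 1530 (9.39%), 893 higher (5.48%) and 637 lower (3.91%). The count thus lay at the edge of the threshold: leaving out 1 mouse at a time gave 0 to 1992 calls, with 0 calls in 13 of the 20 fits, 1992 without mouse 7, 1094 without mouse 1, 624 without mouse 17 and 306 without mouse 16. The genes below are the 6 of smallest p in each direction with a mean of at least 1 CPM. None of them passed.

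Among the genes higher in the high Crym mice, H2ax, a histone H2A variant known for its phosphorylation at DNA breaks, had the smallest p. It lay at 22.8 to 27.5 CPM in the high mice (median 24.1) and at 18.4 to 21.8 CPM in the low mice (median 20.1). The groups did not overlap, with a log2 fold change of 0.30 (SE 0.05, adjusted p = 0.0508, edgeR). Vstm2l, which encodes an immunoglobulin-domain protein, lay at 48.3 to 59.6 CPM (median 56.4) against 39.4 to 50.4 CPM (median 45.0), a log2 fold change of 0.29 (SE 0.05), and 9 of 10 high mice were above every low mouse. H2bu2, a histone H2B gene, lay at 8.49 to 11.9 CPM (median 10.1) against 7.02 to 10.5 CPM (median 8.01) (0.37, SE 0.07), where 1 low mouse overlapped the high group. Med16, a subunit of the Mediator complex, had a log2 fold change of 0.19 (SE 0.04), Ehbp1l1, a partner of Rab8 in membrane traffic, 0.24 (SE 0.05), and Pkig, an inhibitor of protein kinase A, 0.27 (SE 0.05). The adjusted p was 0.0545 for these 5 genes after H2ax.

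Of the genes lower in the high Crym mice, Robo3, an axon guidance receptor, differed most among the 6 named by p. It lay at 12.03 to 30.2 CPM in the high mice (median 18.9) and 20.9 to 49.8 CPM in the low mice (median 32.8), a log2 fold change of -0.71 (SE 0.15), and 7 low mice were above every high mouse. Ano4, of the anoctamin family of membrane proteins, lay at 16.4 to 21.1 CPM (median 18.4) against 19.5 to 24.9 CPM (median 21.7) (-0.29, SE 0.06). Ttc39b, a tetratricopeptide repeat protein, lay at 53.1 to 72.7 CPM (median 62.8) against 69.9 to 84.4 CPM (median 72.001) (-0.27, SE 0.06), and 9 of 10 high mice were below every low mouse. Efcab5, an EF-hand protein, had a log2 fold change of -0.59 (SE 0.13), the noncoding gene 4930579G18Rik -0.60 (SE 0.13) and Cramp1l, a chromatin protein, -0.30 (SE 0.06). All 6 had an adjusted p of 0.0545 (edgeR).

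Across all genes, the difference between high and low Crym mice ran with the length of the transcript. Genes were sorted into 10 classes by their longest transcript, protein-coding where there is one, in the GENCODE M21 annotation, which gave a length to 91.3% of the genes tested. The median log2 fold change was 0.15 in the shortest class (71 to 1328 bases) and went down class by class to -0.14 in the longest (6786 bases and more). In the shortest class 42.7% of genes were higher at an unadjusted p under 0.05, and in the longest 40.7% were lower. Across genes, which are not independent replicates, Spearman's rho of length and log2 fold change was -0.47. It was -0.40 in set A alone and -0.36 in set B alone, and -0.49 to -0.40 when 1 mouse at a time was left out. The longest Crym transcript has 1383 bases, just above the shortest class.

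**Figure D2:**
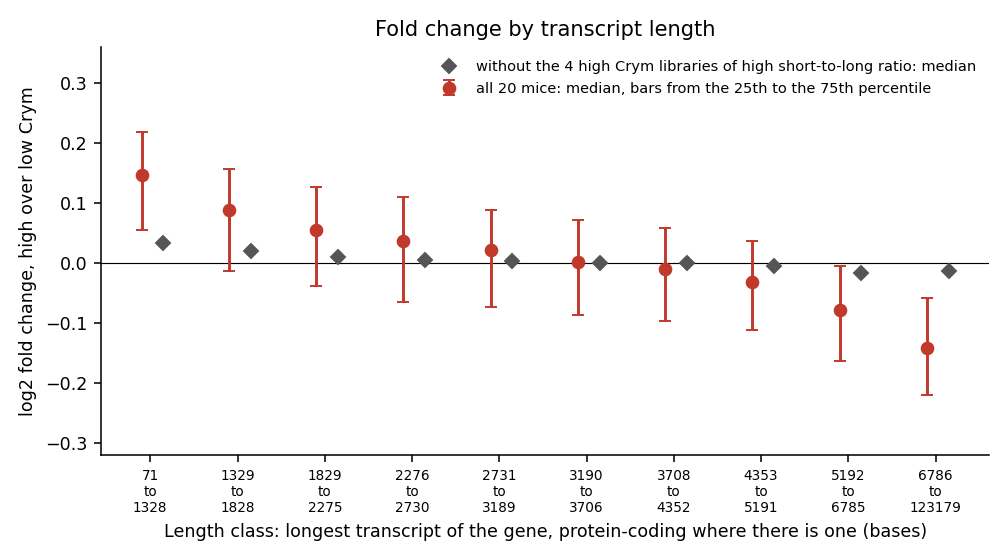
Median log2 fold change of high over low Crym mice (y axis) in 10 classes of transcript length (x axis, bases). Red points are all 20 mice with bars from the 25th to the 75th percentile of genes, and grey diamonds are the medians without the 4 high Crym libraries of high short-to-long ratio. The red medians go from 0.15 to -0.14 and the grey ones from 0.03 to -0.01.

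Families of short transcripts lay mostly above 0, and none of their members passed the adjustment. Of 82 cytosolic ribosomal protein genes, whose products build the ribosome, 76 were above 0, with a median log2 fold change of 0.24 beside 0.00055 over all genes. Among these, 59 had an unadjusted p under 0.05 and a higher level, against 14.4% of all genes and 42.7% of the shortest length class. The median was 0.22 over 51 complex I subunit genes of the respiratory chain (42 at that p), 0.16 over 76 mitochondrial ribosomal protein genes (51) and 0.13 over 39 proteasome subunit genes (24). With the median of each gene's length class subtracted, the cytosolic ribosomal protein median was 0.12 and the complex I median 0.07. It was 0.06 for mitochondrial ribosomal protein genes and 0.03 for proteasome subunit genes. Rpl27a, a large-subunit ribosomal protein gene, lay at 37.9 to 69.8 CPM in the high and 38.5 to 47.6 CPM in the low mice (0.32, SE 0.07), and 6 high mice were above every low mouse while 1 was below them all.

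The 13 genes encoded by the mitochondrial genome were all above 0, with a median of 0.19, which was 0.04 without mouse 12 (11 of 13 above 0). Their share of all counts was 4.79% to 8.89% in high and 5.58% to 6.45% in low mice, with an exact permutation p of 0.631. Counting of ribosomal protein genes with processed copies elsewhere in the genome is uncertain.

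Collagen genes, with long transcripts, lay mostly below 0. The 43 collagen genes, encoding long matrix proteins, had a median log2 fold change of -0.24, with 6 above 0. At an unadjusted p under 0.05, 12 of the 43 were lower, beside 12.5% of all genes. Their median transcript length was 6048 bases, and in the length class of 5192 to 6785 bases 25% of genes were lower at that p. With the median of each gene's length class subtracted, the collagen median was -0.175, with 9 of 43 above 0. Some nuclear long noncoding RNAs, picked after their values were seen, are given as single values that support no theme. Malat1, a noncoding RNA of nuclear speckles, lay at 356 to 1073 CPM in the high mice (median 903) and at 863 to 1291 CPM in the low mice (median 1044), and 4 high mice were below every low mouse (-0.47, SE 0.16, adjusted p = 0.0941, edgeR). Neat1, the noncoding RNA that builds paraspeckles, lay at 67.4 to 149 CPM against 114 to 204 CPM (-0.58, SE 0.14, adjusted p = 0.0598), and Miat, another nuclear noncoding RNA, at 136 to 483 CPM against 274 to 565 CPM (-0.66, SE 0.21).

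The libraries differed in a summary of the same pattern. The mean log2 CPM of 1375 genes of at most 1382 bases minus that of 1373 genes of over 6900.2 bases, here called the short-to-long ratio, was -2.28 to -1.62 in the high mice (median -2.03) and -2.20 to -2.01 in the low mice (median -2.13). Of all libraries, 5 stood above -1.8, a level set after the values were seen, 4 of them high (mice 5, 6, 12 and 28), 1 middle (mouse 22) and none low. The other 27 libraries lay between -2.28 and -2.001. High minus low was 0.20. The ratio was built after the length pattern between these groups had been seen, so it restates that pattern and no p is given for it. The number of genes detected, 19341 to 19970 in high and 19599 to 19905 in low mice, had a two-sided exact permutation p of 0.0271 within genotype and set. It was 0.0677 after adjustment over 5 library measures. The short-to-long ratio was 1 of these 5, so the adjusted value depends on a measure built after the pattern was seen. Library total (exact permutation p = 0.160) and the TMM scaling factor (exact permutation p = 0.517) gave larger values.

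**Figure D3:**
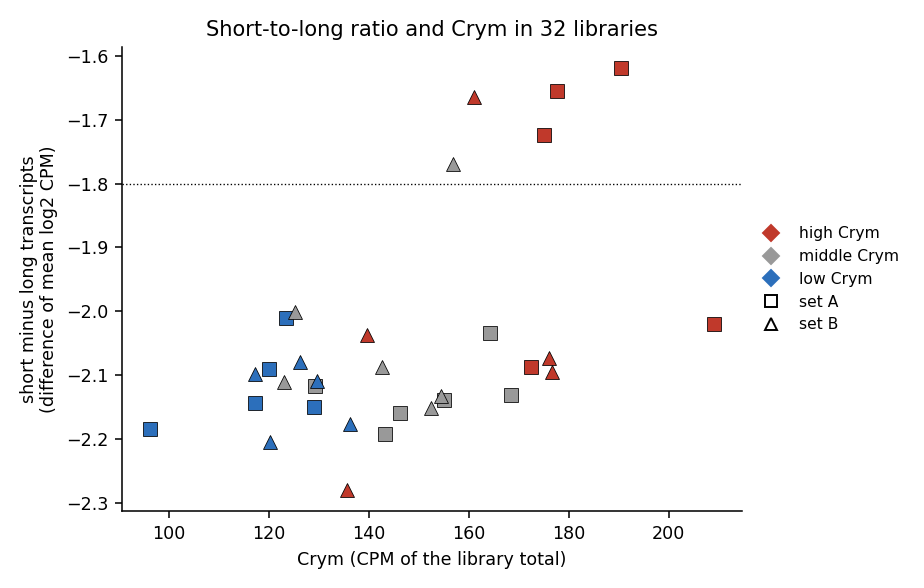
The short-to-long ratio (y axis, difference of mean log2 CPM) against Crym (x axis, CPM) in 32 libraries, coloured by Crym group and shaped by set. The dotted line is at -1.8, and 5 libraries lie above it, 4 of them of the high Crym group.

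Without the libraries above that level, 0 genes passed and 557 of 16515 (3.37%) were under an unadjusted p of 0.05, where 27% were with all 20 mice. These were 231 higher (1.40%) and 326 lower (1.97%) genes. The 4 libraries so left out of this comparison were all of high Crym mice, so the fit also held fewer mice. Because the ratio itself chose these libraries, a smaller length pattern without them was fixed by the choice. The class medians then ran from 0.03 to -0.01 with a rho of -0.14, and the ribosomal protein median was 0.04. With the ratio as a covariate 0 genes passed and 336 genes (2.06%) had an unadjusted p under 0.05. The ratio is made from short and long transcripts themselves, so a smaller length pattern with it as a covariate was likewise largely fixed. H2ax had a log2 fold change of 0.25 (unadjusted p = 0.00147), H2bu2 0.37 (0.00199) and Ano4 -0.36 (0.000146) without those libraries, while Malat1 had -0.08 (0.458) and Cramp1l -0.11 (0.0859). RNA quality was not measured in the files, and its part in the ratio was not tested.

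Markers of the medial and ventral striatum lay mostly above 0 between high and low Crym mice without passing the test, and ran the other way within the 12 middle mice. Of 7 such genes, 6 were above 0 with a median log2 fold change of 0.27, beside 0.00055 over all genes. At an unadjusted p under 0.05, 2 of the 7 were higher, a p that 14.4% of all genes reached with a higher level. Nnat (neuronatin, an endoplasmic reticulum membrane protein, chromosome 2, 157560078 to 157562525, mm10) lay at 87.4 to 166 CPM in the high mice (median 124) and 80.9 to 161 CPM in the low mice (median 96.3). The groups overlapped over most of their range, and the log2 fold change was 0.35 (SE 0.14, adjusted p = 0.132, edgeR). Wfs1 (wolframin, also of the endoplasmic reticulum, chromosome 5, 36966104 to 36988982) lay at 90.5 to 153 CPM (median 123) against 73.5 to 140 CPM (median 95.9), with 4 low mice under every high mouse (0.27, SE 0.11, adjusted p = 0.127). Zcchc12, a zinc finger coactivator, had 0.17 (SE 0.10), and Dlk1, a noncanonical Notch ligand, 0.32 (SE 0.45).

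In the 12 middle mice, which share no animal with the groups, the slopes of all 7 medial genes on log2 Crym were below 0. Their median was -2.01 per doubling of Crym, beside 0.01 over all genes. These slopes rest on Crym differences within genotype and set, where the range was narrow. In set A the middle mice spanned 129 to 155 CPM in N/- and 164 to 168 CPM in N/N. In set B they spanned 123 to 125 CPM in N/- and 143 to 157 CPM in N/N. None of these ranges reaches a doubling. At an unadjusted p under 0.05 were 6 of the 7, where 3.25% of all genes fell at that p, and Peg10, an imprinted gene of retrotransposon origin, passed the adjustment. Dlk1 had a slope of -5.90 (unadjusted p = 0.00052), Wfs1 of -2.01 (0.0324), Zcchc12 of -1.23 (0.0190) and Nnat of -0.68 (0.455). Without mouse 3, whose sex-linked counts went against its label, all 7 were still below 0, with a median of -1.89, and 4 were at that p. The order of the medial markers by Crym was thus not the same between the outer mice and among the middle mice, and the difference was not tested. Falling slopes in the middle mice were not particular to the medial list. All 6 thalamus genes (median -2.89), all 7 of pallidum and basal forebrain (-1.99) and all 14 of astrocytes (-0.75) were below 0. The projection neuron list had a median of 0.21 (4 of 18 below 0) and the cortical list 2.29 (2 of 11). Mouse 2, a middle mouse, had the highest sums of the medial (646 CPM) and thalamus (111 CPM) lists among the 32 mice. Its Crym (129 CPM) was the lowest of the middle mice in N/- of set A, the stratum of widest middle range. A single such mouse can weigh heavily on these falling slopes, and its part in them was not tested.

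Between the groups the medial median was 0.32 without the libraries of high short-to-long ratio, with 6 of 7 above 0. With all 20 mice and the median of each gene's length class subtracted it was 0.20. The median was 0.17 in set A alone (5 of 7 above 0) and 0.22 in set B alone (7 of 7). Cnr1 (chromosome 4, 33923171 to 33948831, mm10), the receptor with the opposite gradient, lay at 349 to 597 CPM in the high mice (median 461) and 377 to 659 CPM in the low mice (median 505). The groups overlapped, and its log2 fold change was -0.11 (SE 0.09, adjusted p = 0.489, edgeR). The other lateral markers, Gpr155 and Coch, had 0.02 (SE 0.11) and 0.21 (SE 0.12).

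Genes of striatal projection neurons, the GABAergic output cells that make up most striatal neurons, leaned the same way in the high and low groups. Of 18 genes shared by these cells, 17 were above 0 (median 0.18, 4 at an unadjusted p under 0.05, a p that 14.4% of all genes reached with a higher level). Of 8 genes of D1 neurons, the direct pathway cells, 7 were above 0 (median 0.16), and of 7 genes of D2 neurons, the indirect pathway cells, all 7 (median 0.26). Without mouse 12 these medians were 0.07 (14 of 18 above 0), 0.08 and 0.10. Drd1, the D1 dopamine receptor, lay at 240 to 357 CPM against 184 to 340 CPM (0.18, SE 0.12). Pdyn, the precursor of dynorphin, lay at 20.1 to 33.0 CPM in the high mice (median 28.3) and 16.0 to 29.1 CPM in the low mice (median 21.1), a log2 fold change of 0.38 (SE 0.12, adjusted p = 0.0755). Penk, the precursor of enkephalin, had 0.29 (SE 0.12, adjusted p = 0.139, edgeR). High and low mice overlapped for each of these 3 genes.

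This leaning was not alike in the sets. The projection neuron median was 0.36 in set A (18 of 18 above 0) and -0.07 in set B (1 of 18). The cortical glutamatergic list, which marks excitatory neurons of the overlying cortex, had a median of -0.13 over both sets (2 of 12 above 0), -0.58 in set A (1 of 12) and 0.33 in set B (12 of 12). Without mouse 12 its median over both sets turned to 0.09, with 10 of 12 above 0. No single gene passed in the Crym group by set test (0 of 16287, 0%; 1287 genes, 7.90%, at an unadjusted p under 0.05, edgeR), and limma voom also gave 0. Without the libraries of high short-to-long ratio the projection neuron median was 0.08, with 17 of 18 above 0.

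A slope on log2 Crym over all 32 mice, an alternative to the high and low groups that uses the middle mice and the size of each difference, called 1826 of 16352 genes (11.2%), 930 rising (5.69%) and 896 falling (5.48%) with Crym. It shares its 20 outer mice with the groups, so its values stand beside theirs and are not separate evidence. A slope is the log2 change per doubling of Crym CPM. The projection neuron list rose in 14 of 18 genes, the D1 list in 6 of 8 and the D2 list in 5 of 7, with median slopes of 0.51, 0.58 and 0.56 beside 0.0040 over all genes. The cortical glutamatergic list fell in 7 of 12 genes, with a median slope of -1.17. None of the medial or lateral markers passed, with slopes of 0.32 (SE 0.19) for Wfs1, 0.34 (SE 0.23) for Nnat and -0.07 (SE 0.18) for Cnr1.

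**Figure D4:**
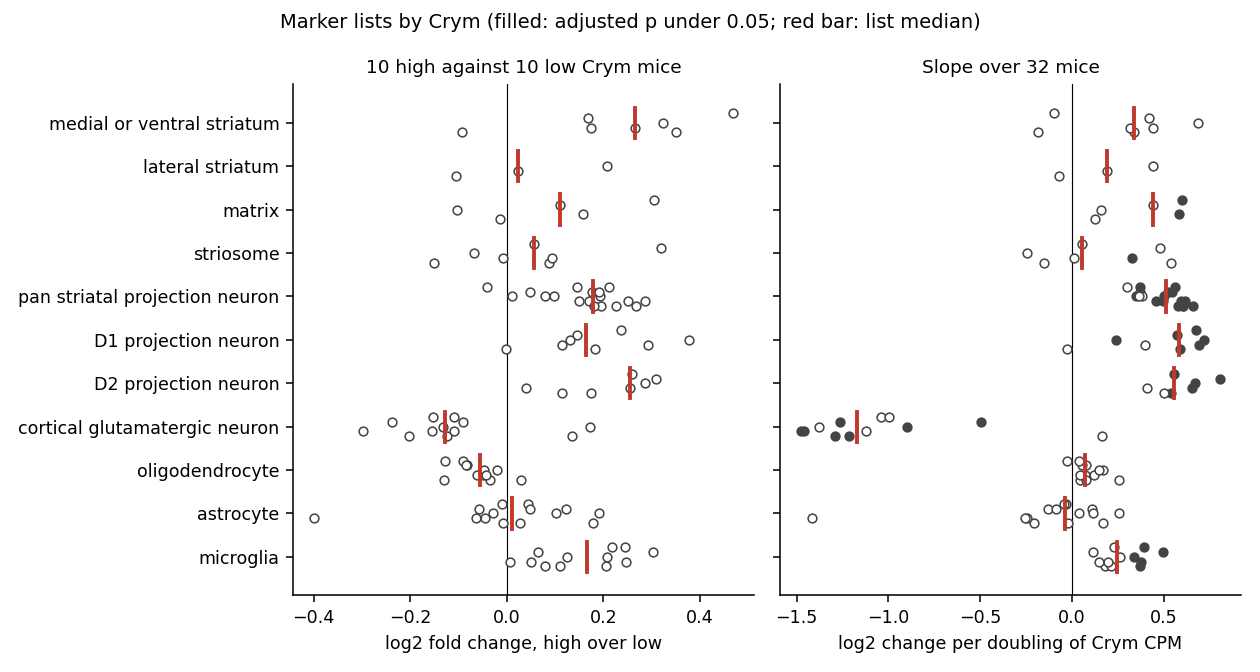
Each circle is a gene of a marker list (rows), placed by its log2 fold change between high and low Crym mice (left x axis) or its slope per doubling of Crym over 32 mice (right x axis). Filled circles passed an adjusted p of 0.05, and red bars are list medians. On the left 0 genes passed. On the right 14 of 18 projection neuron genes rose and 7 of 12 cortical genes fell.

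Among projection neuron genes, Ppp1r1b, which encodes the dopamine-regulated phosphatase inhibitor DARPP-32, rose with a slope of 0.60 (SE 0.15, adjusted p = 0.0104, edgeR). Arpp21, a cyclic AMP-regulated phosphoprotein, rose by 0.58 (SE 0.11, adjusted p = 0.0015) and Gng7, a G protein gamma subunit of these cells, by 0.66 (SE 0.15, adjusted p = 0.00549). The D1 genes Drd1 (0.59, SE 0.13), Tac1, the substance P precursor (0.69, SE 0.14), and Pdyn (0.72, SE 0.18) rose. So did the D2 genes Drd2 (0.54, SE 0.16), Penk (0.67, SE 0.16) and Adora2a, an adenosine receptor (0.65, SE 0.15). Of the 5 matrix genes, which mark the larger striatal compartment, Calb1 (calbindin; 0.60, SE 0.13) and Id4, an inhibitor of DNA binding (0.58, SE 0.12), rose, and of the 7 striosome genes only Tshz1 (0.32, SE 0.08) rose.

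Slc17a7, the vesicular glutamate transporter of cortical neurons, fell with a slope of -1.21 (SE 0.36, adjusted p = 0.0258, edgeR). It was highest in mouse 4, the mouse of lowest Crym. In the groups it lay at 200 to 789 CPM in high mice and 344 to 1099.7 CPM in low mice, which overlapped. The cortical transcription factor genes Tbr1 (-1.29, SE 0.35) and Neurod2 (-1.26, SE 0.38) also fell. The part of cortical tissue in the punch in these slopes was not tested beyond the covariates: with the cortical list's mean as a covariate 1801 genes passed and 2 of 18 projection neuron genes rose. With the projection neuron list's mean as a covariate 119 genes passed.

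The genes of smallest slope p, picked by the same size rule after the values were seen, included signalling and membrane genes. Wnt2, a secreted Wnt ligand, rose by 0.87 per doubling (SE 0.12, adjusted p = 6.1e-05, edgeR) and H2-DMa, which loads peptides on class II molecules, by 0.63 (SE 0.09). 1700037H04Rik rose by 0.54 (SE 0.06, adjusted p = 7.53e-06), and Gpr6, a receptor of D2 neurons, by 0.81 (SE 0.12). Coro6, a coronin that binds actin, fell with a slope of -1.47 (SE 0.20), Kcnk9, a potassium leak channel, of -1.42 (SE 0.20), Rnf152, a ubiquitin ligase, of -1.26 (SE 0.16), and Eya4, a transcriptional coactivator, of -1.16 (SE 0.17).

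**Figure D5:**
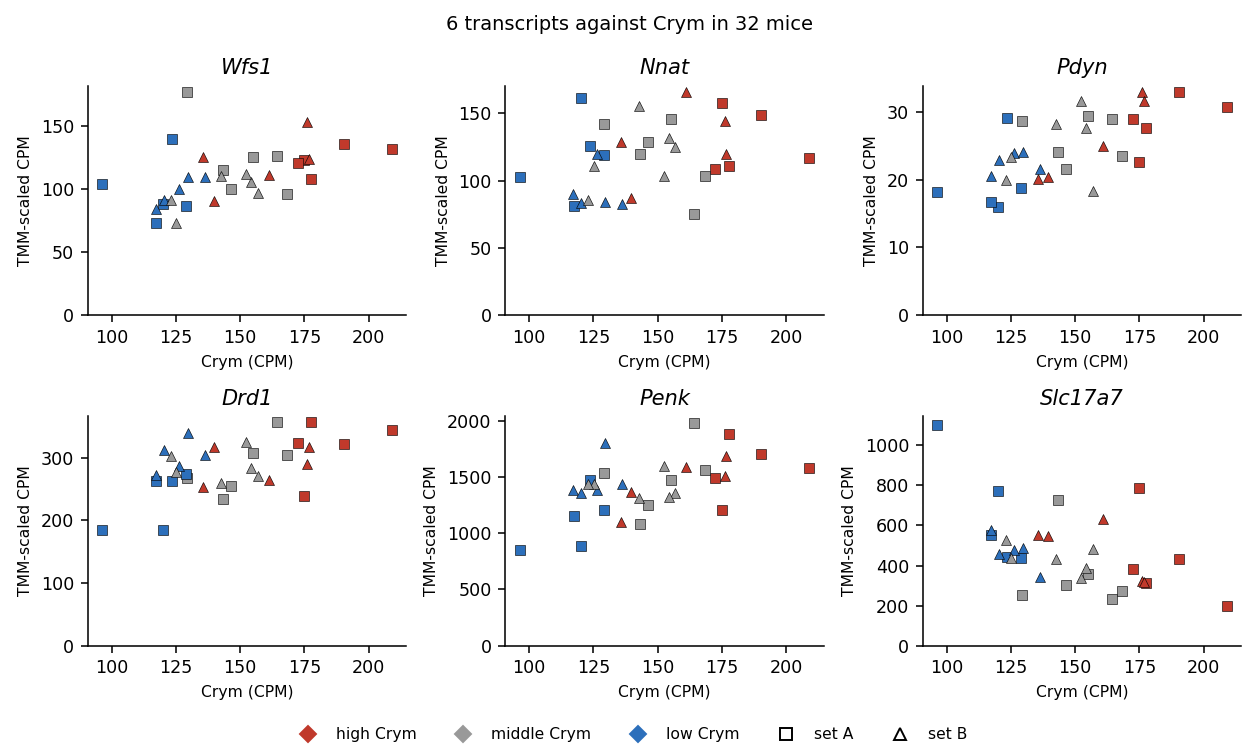
Levels of 6 transcripts (y axes, TMM-scaled CPM) against Crym (x axes, CPM) in 32 mice, coloured by Crym group and shaped by set. Slc17a7 reaches 1099.7 CPM in mouse 4, at 96.3 CPM of Crym, and Pdyn spans 16.0 to 33.0 CPM over the high and low mice.

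Set A, where Crym varied more, gave more slope calls than set B, and single mice moved the count. In set A alone 661 genes passed and in set B alone 0, with projection neuron medians of 0.59 (18 of 18 above 0) and -0.10 (4 of 18) and cortical medians of -1.32 and -0.23. The spread of log2 Crym within genotype was 0.31 (SD) in set A and 0.15 in set B. Drd1 had a slope of 0.72 (SE 0.15) in set A and -0.18 (SE 0.26) in set B. Nnat had 0.16 (SE 0.22) in set A and 1.54 (SE 0.52) in set B, and Cnr1 0.05 (SE 0.17) and -0.89 (SE 0.43). The test of the difference of slopes between sets called 0 of 16352 genes (0%; 398, 2.43%, at an unadjusted p under 0.05, edgeR), and limma voom also called 0. In N/- mice alone 486 genes passed, and in N/N mice alone 0.

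Without mouse 4, 621 genes passed, with 4 of 18 projection neuron genes rising and 0 of 12 cortical genes falling. Without mouse 12, a high N/- female with 8.89% mitochondrial counts, 768 genes passed, with 7 of 18 rising and 2 of 12 falling. In the slope 1636 genes passed without the 5 libraries above -1.8, with 14 of 18 projection neuron genes rising and 10 of 12 cortical genes falling. With the ratio as a covariate 1710 passed, of which 951 were among the 1826 (55.6% of the former and 52.1% of the latter).

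Microglial genes, which mark the resident immune cells of the brain, were above 0 in 12 of 12 cases between high and low mice (median 0.17, 6 at an unadjusted p under 0.05), and 5 of 12 rose in the slope. Of all genes, 14.4% were higher at that p and 5.69% rose. The median between the groups was 0.09 without mouse 12, with 9 of 12 above 0. In the slope 0 of the 12 passed without mouse 12 and 1 without mouse 4. C1qa, a subunit of complement C1q, lay at 47.7 to 84.4 CPM in high and 47.4 to 60.9 CPM in low mice (0.24, SE 0.07, adjusted p = 0.0697, edgeR), and Tyrobp, an adaptor of microglial receptors, at 13.4 to 28.05 CPM against 14.3 to 17.99 CPM (0.30, SE 0.08). Both were highest in mouse 12. With the short-to-long ratio as a covariate 0 of the 12 genes passed in the slope, with a median slope of 0.17 and 11 of 12 above 0, where it was 0.25 with 12 of 12 without the covariate.

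Genes of thyroid hormone handling and response, the pathway of the hormone that mu-crystallin binds, showed no common direction. Of 15 tested, 9 were above 0 between high and low mice, with a median of 0.09, and 0 passed. Thra, the main thyroid hormone receptor of the brain, lay at 468 to 570 CPM in high and 447 to 492 CPM in low mice (0.09, SE 0.04, adjusted p = 0.149, edgeR). In the slope 2 genes rose and 2 fell. Slc16a10, a transporter of aromatic amino acids and thyroid hormone, fell with a slope of -1.04 (SE 0.22, adjusted p = 0.00297), and Hr, a corepressor of thyroid hormone receptors, with a slope of -0.40 (SE 0.10). The 6 genes of lysine and pipecolate breakdown, the pathway of the ketimine reductase activity, had a median of -0.04 between the groups, with 3 above 0, and 0 passed in the slope.

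Across all genes, the middle mice gave few calls. In them 3 of 15414 genes (0.0195%) passed a slope on log2 Crym, and 686 (4.45%) had an unadjusted p under 0.05 (edgeR), 185 rising (1.20%) and 501 falling (3.25%) with Crym. All 3 fell with Crym, namely Spp1 (osteopontin, adjusted p = 0.0349), Peg10 (adjusted p = 0.0349) and Slc17a6 (the vesicular glutamate transporter of subcortical neurons, adjusted p = 0.0349). Without mouse 3, the library that went against its sex label, 1 gene passed, and it was not Peg10. Between the groups Peg10 had a log2 fold change of -0.09 (SE 0.18). The sign of the slope in the middle mice was that of the group difference for 57.1% of all genes, and for 72.6% (188 of 259) of those with an unadjusted p under 0.001 between the groups. Genes are not independent replicates, and middle mouse 22 was among the 5 libraries above -1.8 in the short-to-long ratio. The part of the length pattern in these shared signs was not tested.

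In the middle mice, the genes most like Crym by Pearson correlation of log2 CPM within genotype and set (12 mice, a description) were Katnbl1 (r = 0.96), Prpf38a (0.94), Rnf139 (0.93), S100a3 (0.92), Ramac (0.92), Hat1 (0.92), Exoc6 (0.91) and Zc4h2 (0.89). The most opposite were Eps8 (-0.96), Proser3 (-0.94), Pcdhgc4 (-0.93) and Spp1 (-0.92). Of these 12 genes, S100a3, a calcium-binding protein of the S100 family, had the largest log2 fold change between high and low mice (0.52, unadjusted p = 0.00167), and Katnbl1 had -0.06 (unadjusted p = 0.403). The points share library depth and the composition of the punch.

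The difference between high and low Crym mice was also compared between genotypes. No gene passed the Crym group by genotype test (0 of 16287, 0%; 245, 1.5%, at an unadjusted p under 0.05, edgeR), and limma voom gave 0 as well. The medial list had a median of 0.06 in N/- mice (5 of 7 above 0) and 0.24 in N/N mice (7 of 7), and the projection neuron list 0.29 (18 of 18) and 0.07 (15 of 18). Within each genotype 0 genes passed.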

How the data were processed

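Each sequencing run had a table of raw gene counts, as the authors deposited them. Per the submitters' processing notes, FastQC 0.11.3, Subread, featureCounts, edgeR 3.8.6, limma 3.22.7 and the build mm10 were used, while the series text names TopHat and HTSeq. Which pair made the counts was not settled. The annotation and the handling of strand and multiple matches: not given in the sources used here. Labels speak of technical quadruplicates; 2 runs per mouse (64 in all) were analysed. Runs of 1 mouse differed by a chi-square of 1.14 to 1.41 per degree of freedom, and mice of a stratum by 3.62 to 82.5 (genes with at least 10 summed counts). Runs were therefore summed, with the mouse as replicate. Litters are not labelled.

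Of 27179 identifiers, 25275 matched a symbol (RefSeq, GRCm38.p6); the other 1904 held 0.766% of counts and stayed in. Tests used edgeR 4.0.16 in R 4.3.3 (filterByExpr, TMM, robust quasi-likelihood F test) with genotype by set and sex as terms, and Benjamini-Hochberg adjustment over all genes. Library measures were tested by exact permutation within genotype and set (14400 arrangements). Standard errors (SE) are the log2 fold change over the square root of F. CPM values of genes other than Crym are TMM-scaled. The script was tested on simulated data. limma 3.58.1 and DESeq2 1.42.0 served as alternatives.

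Named genes are the 6 of smallest p per direction with at least 1 CPM, the first 4 of a list or those that passed, and Cyfip2, Cnr1 and Crym; others are said to be chosen after their values were seen, or stand as further list members. The 32 gene lists (303 symbols, 1 without match) and the mice were chosen with earlier results of these data known. The short-to-long ratio, the families by symbol prefix, the length classes, the fits on males alone and all alternatives of the slope were added after seeing the data. Lists are described by counts and medians, with no set test. Values of a few single genes are not reported here.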

Additional observations from a re-analysis of the deposited data

Results flagged for a closer look

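Within groups of 10 mice, a value was marked where its gap to the nearest other mouse was large for the range of the group; chance marks about 1 in 20 groups, and 84 groups were examined. Mouse 12 of the high group had the lowest TMM factor (0.932), the highest mitochondrial share (8.89%), the highest C1qa (84.4 CPM) and the highest Tyrobp (28.05 CPM). Also in the high group, mouse 17 had the highest Miat (483 CPM) and mouse 5 the highest Thra (570 CPM). In the low group, mouse 31 had the lowest TMM factor (0.969). The Crym of mouse 4 (96.3 CPM) was also marked, but Crym chose the groups, so the rate of 1 in 20 does not apply to it. Mouse 21 had the highest H2bu2 (10.5 CPM) of the low group.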

How the results depend on the processing

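Calls between high and low mice (0 with all 20) were recomputed under 43 settings, 40 of them planned, and 25 gave 0. Others gave 2 (RLE size factors), 2 (ranked on the first run), 5 (all 32 mice split at the middle rank), 4 (no sex term), 1 (no strata terms), 3 (set B alone), 1 (males alone, added), 193 (oligodendrocyte score as covariate), 742 (cortical score), 1530 (DESeq2) and 1826 (slope over 32 mice). Leaving out 1 mouse gave 0 to 1992. The slope count of 1826 became 119 with the projection neuron score, 661 in set A, 0 in set B, 486 in N/- and 0 in N/N mice, and 621 to 2067 when 1 mouse was left out. The middle mice gave 3 calls, 9 without the low-count filter and 1 without mouse 3. The cause of these changes was not tested.

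Signs turned in set B alone for Ppp1r1b (-0.0139), Drd1 (-0.12), Drd2 (-0.0499), Adora2a (-0.0023), Slc17a7 (0.31), Neurod2 (0.35) and Tbr1 (0.30). They turned for Dlk1 in set A (-0.12) and N/- mice (-0.29), for Slc17a7 with the cortical score (0.0098), and with the projection neuron score for Drd2 (-0.0032), Slc17a7 (0.11), Neurod2 (0.0038) and Tbr1 (0.0268). Malat1 turned with the short-to-long ratio (0.0034). Leaving out 1 mouse gave -0.32 to 0.0902 for Slc17a7, -0.49 to 0.0399 for Neurod2 and -0.42 to 0.0488 for Tbr1, above 0 without mouse 12. Slopes turned in set B for Ppp1r1b (-0.0926), Arpp21 (-0.0932), Drd1 (-0.18) and Drd2 (-0.0388), in set A for Cnr1 (0.0520), with the projection neuron score for Drd2 (-0.0631), and with the cortical score for Neurod2 (0.0662). Slc17a7 and Neurod2 belong to the cortical list, so the cortical score contains them and draws their values towards 0. Their turned signs with that score therefore decide nothing. Of 1512 gene values under alternatives of the group comparison 18 changed sign, and of 1260 of the slope 7. No paired analysis was possible because mouse numbers are unique to a mouse; cages are labelled, and limma voom with cage as a random effect gave 0 calls. Counting error limits genes under 1 CPM.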

Other observations

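Oligodendrocyte genes, which build myelin, were below 0 in 11 of 12 cases between high and low Crym mice, with a median log2 fold change of -0.06 and 0 genes at an unadjusted p under 0.05; without the libraries of high short-to-long ratio the median was -0.27. Their slopes over 32 mice were above 0 in 11 of 12 cases, with a median of 0.07, and 0 passed. All 4 haemoglobin-related genes were above 0 between the groups (median 0.39), a median of 0.06 without the libraries of high short-to-long ratio (3 of 4) and 0.11 with the ratio as a covariate. In the slope 2 of the 4 rose, beside 5.69% of all genes. Of 12 genes of GABAergic interneurons, 9 were above 0 between the groups (median 0.07), with 5 higher and 0 lower at an unadjusted p under 0.05, beside 14.4% and 12.5% of all genes. Their transcripts are short (median 1480.5 bases), and in the length class of 1329 to 1828 bases 30.2% of genes were higher at that p. With the median of each gene's length class subtracted, the list median was -0.0040, with 6 of 12 above 0. In the slope 6 of the 12 were above 0 and 1 fell. That gene, Pvalb, a calcium buffer of fast-spiking interneurons, was named after its value was seen and lay apart from its list, at 6.58 to 17.2 CPM in high and 10.2 to 21.4 CPM in low mice (-0.36, SE 0.17), with a slope of -1.42 (SE 0.35, adjusted p = 0.0098, edgeR).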
